A study of Saccharomyces cerevisiae with 16 samples.

Results

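The 9 genes described here encode the yeast enzymes of lysine synthesis and the regulator of their transcription. They are LYS20, LYS21, LYS4, LYS12, LYS2, LYS5, LYS9, LYS1 and LYS14, and they were found by symbol among the 6692 genes of the count table. The genes were counted in Saccharomyces cerevisiae cells that carried either full-length eIF4B (WT) or eIF4B without its N-terminal domain (∆ntd). Translation initiation factor eIF4B is encoded by TIF3. It helps the small ribosomal subunit to load on mRNA, and the comparison asks how much its N-terminal domain contributes, with and without urea. The paper describes urea as a denaturant that yeast can also use as a nitrogen source. It holds denaturation of nucleic acids to be unlikely at the dose used. There were 4 groups with 2 cultures each, which are ∆ntd in 3% urea, ∆ntd without urea, WT in 3% urea and WT without urea, all grown in SD medium at 30°C. Both strains carried his3Δ1, leu2Δ0, ura3Δ0, met15Δ0 and tif3Δ0, with HIS3, LEU2, URA3, MET15 and either tif3Δntd or TIF3 under its native promoter on a single-copy plasmid, and the labels call the WT strain BY4741. They descended from LYS2 clones, and the medium held no amino acids, so that every culture had to make its own lysine. An RNAseq library and a Riboseq library were made from the extract of each culture, which gave 16 libraries. Riboseq sequences the mRNA fragments (footprints) that translating ribosomes protect, and translation efficiency (TE) is the ratio of Riboseq to RNAseq for a gene.

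Fungi make lysine from 2-oxoglutarate and acetyl-CoA through 2-aminoadipate, a route that animals and plants lack. Homocitrate synthase, made as the isoenzymes Lys20 and Lys21, performs the committed step and is inhibited by lysine. Homoaconitase (Lys4) and homoisocitrate dehydrogenase (Lys12) follow in mitochondria and lead to 2-oxoadipate, which is transaminated to 2-aminoadipate. The reductase Lys2, which works only after Lys5 has attached its phosphopantetheine arm, gives the semialdehyde, and the saccharopine dehydrogenases Lys9 and Lys1 complete lysine in the cytosol. Transcription of the pathway is driven by Lys14, which needs the semialdehyde as co-inducer and so links the genes to flux through the pathway. Gcn4, the general activator of amino acid synthesis genes, acts on many of the same promoters.

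Between 1888481 and 5169546 reads per RNAseq library and between 3067506 and 17380262 per Riboseq library were assigned to genes. All 9 genes passed the filter on low counts in both assays, with 5486 genes tested in RNAseq, 5286 in Riboseq and 5251 for TE. Levels are CPM, counts relative to the library size after TMM scaling within each assay. Footprint and TE changes are therefore relative to other genes and do not measure global translation. The paper reports reduced global translation in ∆ntd from polysome to monosome ratios, lowest in urea. The Riboseq libraries of ∆ntd in urea differed from each other more than any other pair. The SD of their log2 differences across genes was 0.506, against 0.162 to 0.273 in the other Riboseq groups. Among marker genes, TIF3 and the plasmid markers were well counted and the a-specific MFA1, MFA2 and STE2 were high while the alpha-specific MF(ALPHA)1 and STE3 were near 0. Both strains share these markers, which therefore do not test the labels of strain or urea. Changes are log2 ratios with their SE, and adjusted p-values come from the quasi-likelihood test of edgeR, adjusted after Benjamini-Hochberg over all genes tested, with a threshold of 0.05. The smallest p that exact permutation of 2 against 2 cultures allows is 0.333. The study calls the cultures of a group biological replicates. The p-values of the main fit use a spread pooled over the cultures of all 4 groups, not that of the groups compared alone. The wide Riboseq pair of ∆ntd in urea therefore also enters footprint and TE tests of the other groups. With 1 culture left out, the lone library of its group has no spread of its own and is assumed to vary like the others. In bulk samples a gene's share of the RNA is measured, and fewer cells that express it cannot be told apart from less RNA in each cell.

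All 9 genes have 1 coding exon on the R64 genome. LYS20 (YDL182W, chrIV:133437-134723), LYS21 (YDL131W, chrIV:227393-228715), LYS4 (YDR234W, chrIV:931129-933210) and LYS14 (YDR034C, chrIV:509737-512109) lie on chromosome IV. LYS12 (YIL094C, chrIX:186517-187632) and LYS1 (YIR034C, chrIX:419615-420736) lie on chromosome IX. LYS2 (YBR115C) lies at chrII:469748-473926, LYS5 (YGL154C) at chrVII:215278-216096 and LYS9 (YNR050C) at chrXIV:714048-715388. Coding lengths ran from 819 nt in LYS5 to 4179 nt in LYS2, beside a median of 1194 nt over 6008 genes. Promoters, read from 250 bases before to 50 after each start codon, were searched on both strands for TGACTC, the core of the Gcn4 element, and for TCCNNNGGA, the element of Lys14, because these genes share both activators. TGACTC occurred in 4 of 9 promoters, against 8.0% of 6007 promoters. The sequences below give each occurrence with 10 bases on either side, written on the gene's strand with the motif in capitals, and positions are counted from the A of the start codon, negative upstream.
LYS12 chrIX:187775-187800, - strand, motif starting at -158: attcttaagaTGACTCtaattagagg
LYS2 chrII:474105-474130, - strand, motif starting at -194: ttttcgcgtgTGACTCaatgtcgaaa
LYS1 chrIX:420970-420995, - strand, motif starting at -249: ctaagtcgatGAGTCAaaaaagactc
LYS1 chrIX:420855-420880, - strand, motif starting at -134: cagcgacaaaGAGTCAtaaagtcatc
LYS14 chrIV:512344-512369, - strand, motif starting at -250: ggacgcgacgTGACTCaattggaaga

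Both LYS1 occurrences read as TGACTC on the opposite strand. The letters TCCNNNGGA also occurred in 4 of 9 promoters, against 3.4% of all, and never overlapped TGACTC. LYS9 and LYS14 had 2 occurrences each, of which the second in LYS14 lies inside the coding sequence.
LYS12 chrIX:187796-187824, - strand, motif starting at -182: ttcactttttTCCCGTGGAaaaatattct
LYS9 chrXIV:715595-715623, - strand, motif starting at -225: gaatcgaaatTCCGTTGGAaaaattcgct
LYS9 chrXIV:715533-715561, - strand, motif starting at -163: attgagaattTCCAATGGAattatcagca
LYS1 chrIX:420914-420942, - strand, motif starting at -196: atttttttttTCCAGCGGAatttggaatt
LYS14 chrIV:512307-512335, - strand, motif starting at -216: tggaaaaattTCCTCAGGAatttcaaaat
LYS14 chrIV:512059-512087, - strand, motif starting at 32: atgaaaattcTCCAGAGGAtagagaactg

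LYS12, LYS1 and LYS14 held both motifs. LYS20, LYS21, LYS4 and LYS5 held neither in this window, which says nothing about binding of the factors elsewhere. The start codons of the 3 genes whose TE differed between the strains in urea are shown with 12 bases before and 6 after, with the ATG in capitals.
LYS20 chrIV:133425-133445, + strand: gttttcctaaagATGactgct
LYS21 chrIV:227381-227401, + strand: ctttaacaaaccATGtctgaa
LYS14 chrIV:512101-512121, - strand: tttctggcaataATGttcgaa

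All 3 had A at the position 3 bases before the ATG, as did 7 of 9 genes of the pathway and 60.8% of 6004 genes. LYS20 and LYS21 are close paralogs, with 1171 of 1281 aligned coding bases identical (91.4%) and a longest identical run of 278 bases. Of the 28-nt windows of LYS20, 48.6% also occurred in LYS21, and 47.2% of the windows of LYS21 occurred in LYS20. Reads were counted only where they mapped uniquely, so that the levels of this pair are understated and their counts are uncertain, while no 28-nt window of the other 7 genes occurred in a second gene. For 50-nt windows, nearer to the length of the RNA fragments, the shared part was 37.8% in LYS20 and 36.7% in LYS21. Footprints may thus be dropped more often than RNA reads, so that the TE of this pair may be understated as well.

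RNA per kilobase of LYS20, LYS21, LYS4, LYS12, LYS2, LYS9 and LYS1 lay at or above the 88.3rd percentile of 5390 genes in every group. That of LYS14 lay between the 64.8th and the 68.2nd percentile and that of LYS5 between the 24.9th and the 42.2nd. Summed over the 9 genes, RNA reached 5275 and 5553 CPM in ∆ntd cells in urea, 4882 and 4752 in ∆ntd cells without it, 8108 and 7978 in WT cells in urea and 5569 and 5551 in WT cells without it. Footprints summed to 5036 and 5156 CPM in ∆ntd cells in urea, 4504 and 4458 in ∆ntd cells without it, 6432 and 6471 in WT cells in urea and 4766 and 4628 in WT cells without it. WT cells in urea therefore stood above the other 3 groups in both assays with no overlap, also as a percentage of all counts, where their RNA was 0.707% and 0.684%, against 0.517% to 0.597% in the other RNAseq libraries. Per kilobase of coding sequence, the order of RNA levels in ∆ntd with urea was LYS12 (1143 CPM per kb), LYS9 (831), LYS4 (324), LYS2 (297), LYS20 (285), LYS1 (235), LYS21 (215), LYS14 (68.4) and LYS5 (38.1). In WT without urea it was LYS9 (1106 CPM per kb), LYS12 (780), LYS21 (375), LYS2 (305), LYS20 (290), LYS4 (277), LYS1 (266), LYS14 (70.3) and LYS5 (25.5). The replicates of LYS2 and LYS20 overlapped in the order of ∆ntd with urea, and those of LYS20 and LYS4 in the order of WT without urea. Counted per 28-nt window not shared with another gene, LYS20 and LYS21 came next after LYS12 and LYS9 in ∆ntd with urea, at 565 and 416 CPM per 1000 windows.

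**Figure D1:**
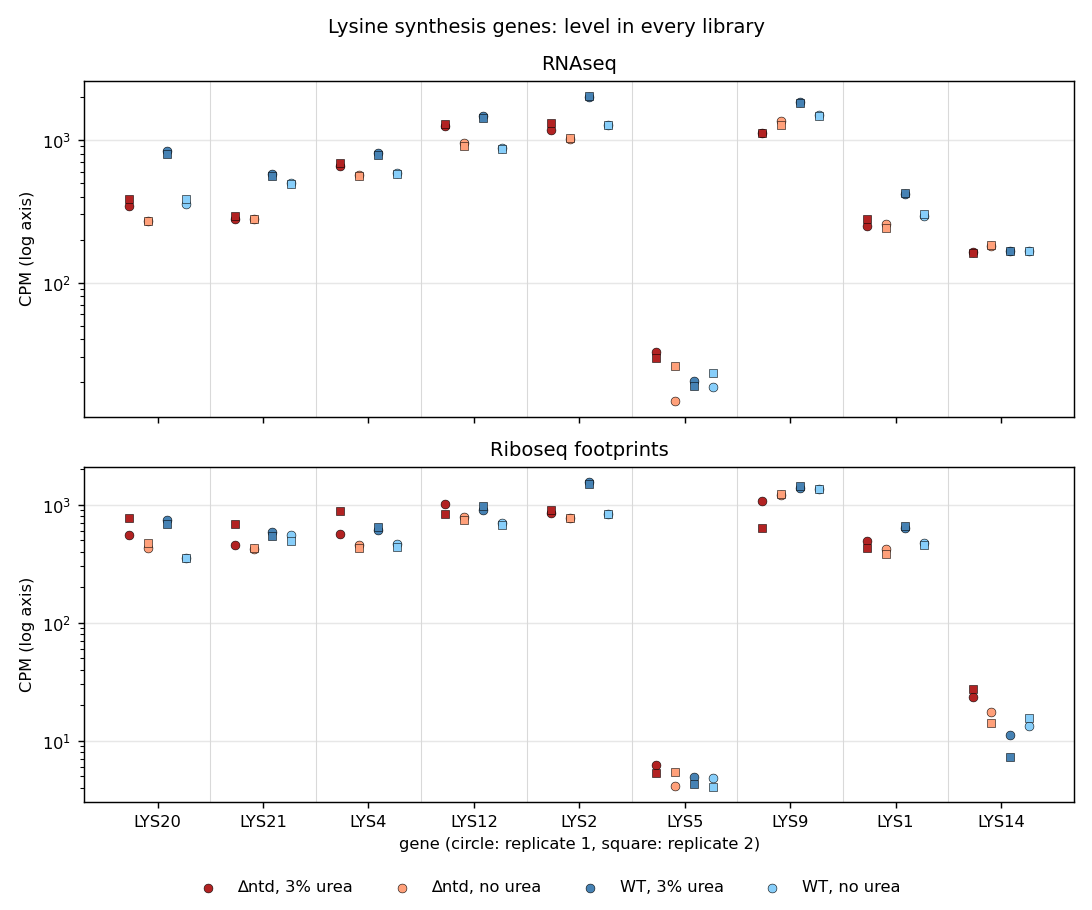
CPM of RNA (top) and footprints (bottom) of the 9 lysine synthesis genes in each of the 16 libraries, on log axes, with circles for replicate 1 and squares for replicate 2. LYS20 RNA was at 795 to 829 CPM in WT with urea and under 390 CPM in the other libraries, and the footprints of LYS4, LYS9, LYS20 and LYS21 were spread widely between the cultures of ∆ntd in urea.

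In ∆ntd cells, urea raised the RNA of 5 of 9 genes and lowered that of LYS9, where 26.2% of all genes tested passed, 13.4% higher and 12.8% lower. The genes not called were LYS21 (log2 0.03 ± 0.07), LYS1 (log2 0.08 ± 0.08) and LYS14 (log2 -0.16 ± 0.08). The median log2 change was 0.26, and with library totals in place of TMM 4 genes were higher and 2 lower. In WT cells, urea raised the RNA of 7 of 9 genes and lowered none, where 28.5% of all genes passed and 16.1% were higher, and the exceptions were LYS5 (log2 -0.08 ± 0.22) and LYS14 (log2 0.00 ± 0.07). With library totals 6 were higher in WT, without LYS21. The median log2 change was 0.47 over the genes of the pathway and 0.00 over all genes.

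In urea, RNA was lower in ∆ntd than in WT for LYS20, LYS21, LYS9, LYS2, LYS1, LYS4 and LYS12 and higher for LYS5, which is 8 of 9 genes where 43.9% of all genes passed, 22.5% lower and 21.5% higher. Without urea, it was lower in ∆ntd for LYS21, LYS20, LYS2, LYS1 and LYS9, which is 5 of 9 genes where 36.8% of all genes passed and 19.3% were lower. The median log2 change was -0.67 in urea and -0.17 without urea. These directions depend in part on scaling. With library totals in place of TMM, the median log2 change of all genes moved by 0.325 in urea and by 0.283 without urea. With TMM, 48.9% of all genes called in urea and 47.6% of those called without urea were higher in ∆ntd. With library totals these shares were 84.2% and 85.5%. On that scale 3 genes were higher and 5 lower in urea, with LYS4 (0.078), LYS12 (0.15) and LYS14 (0.28) turned to positive values. Without urea 3 were higher and 2 lower, with LYS9 (0.11), LYS1 (0.023) and LYS4 (0.24) turned. LYS20 and LYS21 were lower in ∆ntd on both scales and in both media, and LYS2, LYS9 and LYS1 were lower on both scales in urea. The urea response itself was lower in ∆ntd than in WT for the RNA of 5 of 9 genes, LYS20, LYS9, LYS1, LYS2 and LYS12, where 10.4% of all genes passed this test of the difference and 6.07% were lower.

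Fewer genes passed in footprints. Urea raised those of LYS4, LYS14 and LYS20 in ∆ntd, 3 of 9 genes where 28.4% of all genes passed and 16.9% were higher. It raised those of LYS20, LYS2 and LYS1 in WT, 3 of 9 where 9.21% passed and 4.73% were higher. With library totals, LYS9 alone passed in ∆ntd (-0.91), as the median of all genes moved by -0.43. In urea, footprints of LYS2, LYS9 and LYS1 were lower and those of LYS14 higher in ∆ntd, 4 of 9 genes where 32.9% of all genes passed, 15.1% lower and 17.9% higher. Without replicate 1 and without replicate 2 of ∆ntd in urea, the values were -0.78 and -0.84 for LYS2 and -1.16 and -0.40 for LYS9. They were -0.60 and -0.42 for LYS1 and 1.51 and 1.29 for LYS14. Between the strains without urea, 0 of 9 genes passed edgeR's test, where 9.21% of all genes did, 0 had an unadjusted p under 0.05, DESeq2 called 0 and limma-voom called 3. The difference between the urea responses passed for LYS2 and LYS14, 2 of 9 where 8.36% of all genes passed, 3.44% lower and 4.92% higher. With library totals it passed for LYS2 and LYS20, both lower. With TMM and without replicate 1 or 2 of ∆ntd in urea, it was -0.65 or -0.71 for LYS2 and 1.39 or 1.17 for LYS14. Neither call held with any other culture left out, and over all omissions the LYS14 value was 1.05 to 1.68. With a replicate block both calls ended (edgeR adjusted p = 0.0592 for LYS2 and 0.0716 for LYS14).

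TE changed for few of the genes. In ∆ntd, urea raised the TE of LYS14 alone, where 11.6% of all genes passed and 7.29% were higher, whereas with library totals LYS2 (-0.45) and LYS12 (-0.52) passed. In WT, urea changed the TE of 0 of 9 genes by edgeR, where 0.133% of all genes passed. In that comparison 1 gene had an unadjusted p under 0.05, and DESeq2 and limma-voom called 0. Between the strains in urea, ∆ntd had higher TE for LYS20, LYS21 and LYS14, 3 of 9 genes where 25.3% of all genes passed and 15.1% were higher. Without urea this held for LYS20, where 6.47% passed and 3.1% were higher. With library totals, under which the median of all genes moved by -0.582, these 3 were still higher in urea but by less (LYS20 0.43, LYS21 0.37, LYS14 0.85), and LYS2 (-0.71) and LYS1 (-0.42) were lower. Only LYS14 passed the test of the difference between the urea responses, where 0.609% of all genes passed and 0.267% were higher, and with library totals LYS2 alone passed (-0.68). TE changes that use ∆ntd in urea moved when 1 of its cultures was left out. Between the strains in urea, without replicate 1 or 2, the change was 1.16 or 0.82 for LYS20 and 1.19 or 0.68 for LYS21. For LYS14 it was 1.52 or 1.30 there, and 0.96 or 0.74 with urea in ∆ntd. For LYS9, which did not pass, it was -0.48 or 0.28 between the strains in urea.

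**Figure D2:**
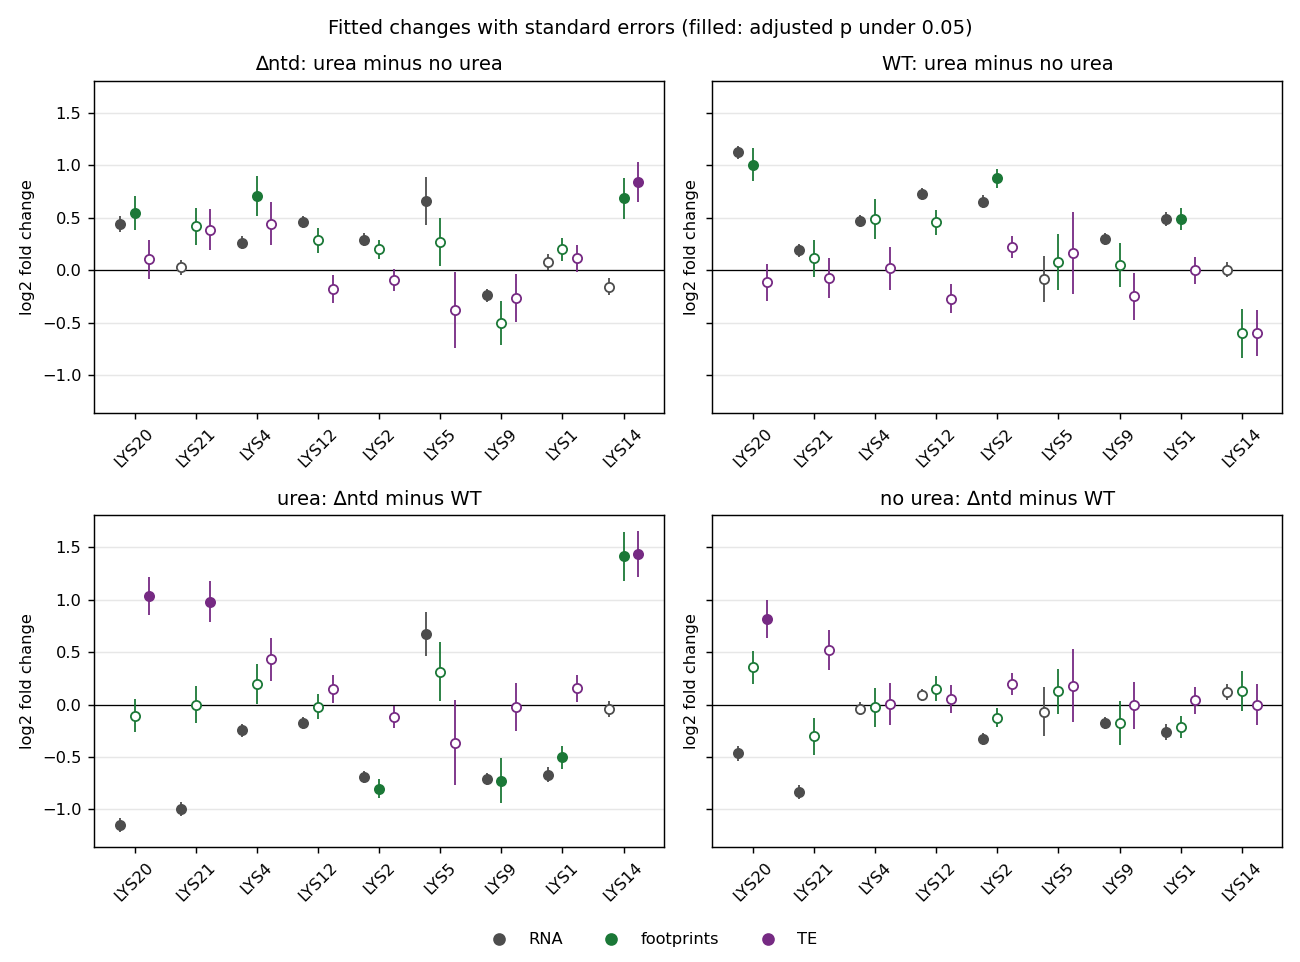
Fitted log2 changes of RNA, footprints and TE with their SE for the 9 genes in each of 4 comparisons, filled where the edgeR adjusted p was under 0.05. In urea, LYS20 and LYS21 had lower RNA in ∆ntd than in WT (-1.15 and -0.99) and higher TE (1.03 and 0.98, or 0.43 and 0.37 with library totals), with footprint changes (-0.11 and 0.00) that took both signs over the ∆ntd cultures left out. LYS14 had higher footprints and TE and an RNA change that did not pass (0.28 with library totals, which passed).

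LYS20 encodes one of the isoenzymes of homocitrate synthase. Its RNA stood at 346 and 387 CPM in ∆ntd cells in urea, 271 and 268 in ∆ntd cells without it, 829 and 795 in WT cells in urea and 358 and 388 in WT cells without it. The WT cultures in urea were far above all others, ∆ntd in urea overlapped WT without urea, and ∆ntd without urea was lowest. Urea raised LYS20 RNA in ∆ntd (log2 0.44 ± 0.08, edgeR adjusted p = 3.4e-05) and in WT (log2 1.12 ± 0.07, edgeR adjusted p = 4.8e-15), and the response was smaller in ∆ntd (log2 -0.68 ± 0.10, edgeR adjusted p = 1.2e-05). Relative to WT, ∆ntd had less LYS20 RNA both in urea (log2 -1.15 ± 0.07, edgeR adjusted p = 2.3e-15) and without it (log2 -0.47 ± 0.07, edgeR adjusted p = 5.1e-06).

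Footprints of LYS20 followed another order, with 548 and 776 CPM in ∆ntd cells in urea, 432 and 476 in ∆ntd cells without it, 734 and 689 in WT cells in urea and 356 and 353 in WT cells without it. Here the cultures of ∆ntd in urea lay on both sides of those of WT in urea, and ∆ntd without urea was above WT without urea. Urea raised the footprints in WT (log2 1.01 ± 0.16, edgeR adjusted p = 0.00753). The value was 0.96 to 1.06 over the cultures left out, where the call ended without any 1 of the 4 WT cultures. It passed in all 7 alternatives other than leaving out 1 culture, at 0.89 to 1.03. Urea also raised the footprints in ∆ntd (log2 0.54 ± 0.16, edgeR adjusted p = 0.0376). This rise fell to 0.27 without replicate 2 of ∆ntd in urea and was 0.78 without replicate 1. Its call ended without any 1 of the other 6 cultures, with library totals (0.09, adjusted p = 0.553) or with only the groups compared (adjusted p = 0.171). The change between the strains in urea did not pass (log2 -0.11 ± 0.16). Over the ∆ntd cultures in urea it was 0.12 without replicate 1 and -0.39 without replicate 2, and it was -0.40 with library totals (adjusted p = 0.0301).

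The TE of LYS20 was 1.58 and 2.01 in ∆ntd cells in urea, 1.59 and 1.77 in ∆ntd cells without it, 0.885 and 0.867 in WT cells in urea and 0.993 and 0.911 in WT cells without it. Every ∆ntd culture lay above every WT culture. TE was higher in ∆ntd in urea (log2 1.03 ± 0.18, edgeR adjusted p = 0.00107), and without urea (log2 0.81 ± 0.18, edgeR adjusted p = 0.0169). The difference in urea passed with each culture left out in turn, at 1.16 without replicate 1 and 0.82 without replicate 2 of ∆ntd in urea. With library totals it was 0.43 (adjusted p = 0.0227). The difference without urea passed no longer without either culture of WT without urea, WT in urea or ∆ntd without urea (adjusted p 0.0506 to 0.246). Among 5251 genes LYS20 TE ranked at the 91.4th percentile in ∆ntd cells in urea, the 95.9th in ∆ntd cells without it, the 78.2nd in WT cells in urea and the 80.7th in WT cells without it.

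LYS21 encodes the other homocitrate synthase. LYS21 RNA stood at 278 and 291 CPM in ∆ntd cells in urea, 279.5 and 277 in ∆ntd cells without it, 575 and 555 in WT cells in urea and 502 and 489.7 in WT cells without it. All 4 ∆ntd cultures were below all 4 WT cultures, and within ∆ntd the groups with and without urea overlapped. RNA was lower in ∆ntd in urea (log2 -0.99 ± 0.07, edgeR adjusted p = 5.4e-14) and without urea (log2 -0.83 ± 0.07, edgeR adjusted p = 8.4e-12). Urea raised it in WT (log2 0.19 ± 0.06, edgeR adjusted p = 0.0186), a call that ended without any 1 of the 4 WT cultures (adjusted p 0.0525 to 0.139), with library totals (0.07, adjusted p = 0.395) and by DESeq2 (adjusted p = 0.0791). In ∆ntd its change with urea did not pass (log2 0.03 ± 0.07).

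Footprints of LYS21 were 457 and 679.5 CPM in ∆ntd cells in urea, 417 and 432 in ∆ntd cells without it, 589.7 and 545 in WT cells in urea and 557 and 492 in WT cells without it. The 2 cultures of ∆ntd in urea enclosed both cultures of WT in urea. The change between strains in urea was log2 0.00 ± 0.18. It was 0.25 without replicate 1 and -0.32 without replicate 2 of ∆ntd in urea, so no direction can be given. With urea in ∆ntd, LYS21 footprints changed by 0.68 without replicate 1 and 0.10 without replicate 2, and did not pass with both. TE of LYS21 was 1.64 and 2.34 in ∆ntd cells in urea, 1.49 and 1.56 in ∆ntd cells without it, 1.03 and 0.981 in WT cells in urea and 1.11 and 1.00 in WT cells without it, with every ∆ntd culture above every WT culture. The difference passed in urea (log2 0.98 ± 0.19, edgeR adjusted p = 0.00233) and with each culture left out, including 1.19 without replicate 1 and 0.68 without replicate 2 of ∆ntd in urea. With library totals it was 0.37 (adjusted p = 0.0476). Without urea it did not pass (log2 0.52 ± 0.19, edgeR adjusted p = 0.137). It passed there with only the groups compared (0.55, edgeR adjusted p = 5.6e-05) and by limma-voom (0.52, adjusted p = 3.6e-04). These were 2 of the 8 alternatives other than leaving out 1 culture.

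The balance of counts between the genes of the isoenzymes shifted with urea, which is a description without a test. LYS20 gave 55.5% and 57.1% of the RNA counts of the pair in ∆ntd cells in urea, 49.2% and 49.2% in ∆ntd cells without it, 59.1% and 58.9% in WT cells in urea and 41.7% and 44.2% in WT cells without it. In footprints it gave 54.6% and 53.3% in ∆ntd cells in urea, 50.8% and 52.4% in ∆ntd cells without it, 55.5% and 55.9% in WT cells in urea and 39.0% and 41.8% in WT cells without it. In both strains and both assays the share of LYS20 was higher with urea with no overlap of cultures, while whether this shift differed between the strains was not tested. Wilson intervals of 95%, which cover counting error only, reached from 53.0% to 58.0% for RNA in replicate 1 of ∆ntd with urea and from 39.8% to 43.5% for RNA in replicate 1 of WT without urea. For footprints in replicate 2 of ∆ntd they overlapped, from 52.2% to 54.4% with urea and from 51.5% to 53.3% without urea.

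**Figure D3:**
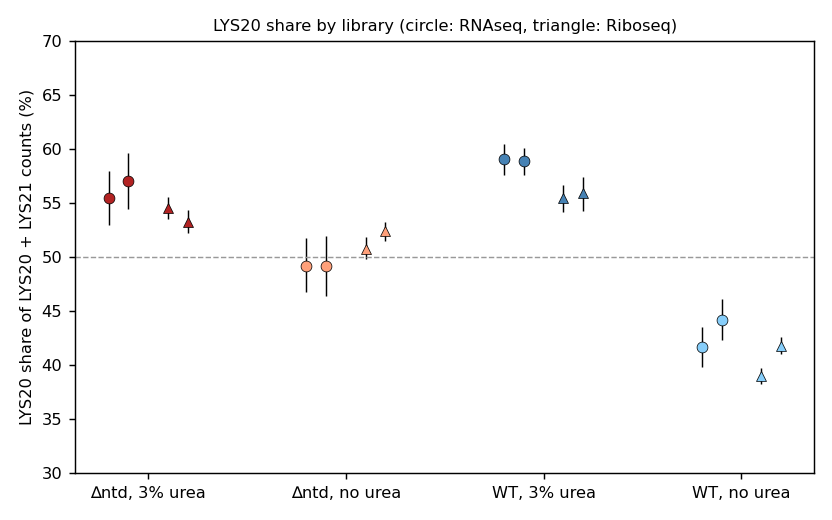
LYS20 as a percentage of the counts of LYS20 and LYS21 together, by library, with Wilson 95% intervals, circles for RNAseq and triangles for Riboseq, and a dashed line at 50%. The lowest values, 39.0% to 44.2%, were those of WT without urea, and the groups in urea lay between 53.3% and 59.1%.

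RNA of LYS4 (homoaconitase) stood at 659.6 and 688 CPM in ∆ntd cells in urea, 563 and 560 in ∆ntd cells without it, 814 and 784 in WT cells in urea and 582 and 573 in WT cells without it. WT in urea was highest and ∆ntd in urea next, both above the cultures without urea. Urea raised LYS4 RNA in ∆ntd (log2 0.26 ± 0.06, edgeR adjusted p = 0.00202) and in WT (log2 0.47 ± 0.06, edgeR adjusted p = 2.5e-07). In urea, RNA was lower in ∆ntd (log2 -0.25 ± 0.06, edgeR adjusted p = 0.00138), a direction that turned to 0.078 with library totals.

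LYS4 footprints were 562 and 881 CPM in ∆ntd cells in urea, 456 and 428 in ∆ntd cells without it, 608 and 652 in WT cells in urea and 464 and 435 in WT cells without it, with the widest gap between the 2 cultures of ∆ntd in urea. The rise of footprints with urea in ∆ntd (log2 0.70 ± 0.19, edgeR adjusted p = 0.0281) was 1.00 without replicate 1 and 0.35 without replicate 2 of the ∆ntd cultures in urea, and the call ended without any 1 of the other 6 cultures (adjusted p 0.0562 to 0.158), with library totals (0.24, adjusted p = 0.16) and with only the groups compared (adjusted p = 0.14). In WT the change did not pass (log2 0.48 ± 0.19, edgeR adjusted p = 0.166). It passed with only the groups compared (edgeR adjusted p = 6.0e-06) and by limma-voom (adjusted p = 4.9e-04). These were 2 of the 7 alternatives other than leaving out 1 culture. TE of LYS4 was 0.852 and 1.28 in ∆ntd cells in urea, 0.810 and 0.764 in ∆ntd cells without it, 0.747 and 0.831 in WT cells in urea and 0.798 and 0.760 in WT cells without it, and no TE comparison passed with all cultures. Without replicate 1 of ∆ntd in urea, TE differed by 0.67 between strains in urea and changed by 0.70 with urea in ∆ntd. Without replicate 2 these values were 0.08 and 0.11. The footprint change between the strains in urea was likewise 0.48 without replicate 1 and -0.17 without replicate 2.

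RNA of LYS12 (homoisocitrate dehydrogenase) stood at 1251 and 1301 CPM in ∆ntd cells in urea, 953 and 900 in ∆ntd cells without it, 1460 and 1416 in WT cells in urea and 871 and 869 in WT cells without it. Both groups in urea were above both without urea. It rose with urea in ∆ntd (log2 0.46 ± 0.06, edgeR adjusted p = 4.4e-07) and in WT (log2 0.72 ± 0.06, edgeR adjusted p = 1.7e-11). The rise was smaller in ∆ntd (log2 -0.26 ± 0.08, edgeR adjusted p = 0.0394), a difference that passed no longer without any of 6 of the 8 cultures (adjusted p 0.0716 to 0.183), with library totals (adjusted p = 0.061) or by DESeq2 (adjusted p = 0.0964). In urea, LYS12 RNA was lower in ∆ntd (log2 -0.17 ± 0.06, edgeR adjusted p = 0.017), a call that ended without replicate 1 of either group (adjusted p 0.115 and 0.147) and turned to 0.15 with library totals. Footprints of LYS12 were 1020 and 829.5 CPM in ∆ntd cells in urea, 784 and 736 in ∆ntd cells without it, 908 and 968 in WT cells in urea and 699 and 669 in WT cells without it. They too were higher in each culture with urea than in each without, and neither the change in ∆ntd (log2 0.28 ± 0.12, edgeR adjusted p = 0.112) nor that in WT (log2 0.46 ± 0.12, edgeR adjusted p = 0.0558) passed. That in WT passed in 4 of the 7 alternatives other than leaving out 1 culture. These were only the groups compared (edgeR adjusted p = 1.4e-05), limma-voom (adjusted p = 2.5e-04), DESeq2 (adjusted p = 0.0132) and its size factors (edgeR adjusted p = 0.0467). Without replicate 2 of ∆ntd in urea the change in ∆ntd was 0.42, and without replicate 1 it was 0.13. LYS12 TE was 0.815 and 0.637 in ∆ntd cells in urea, 0.822 and 0.818 in ∆ntd cells without it, 0.622 and 0.683 in WT cells in urea and 0.803 and 0.769 in WT cells without it, and no TE comparison passed with all cultures and TMM.

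LYS2 encodes 2-aminoadipate reductase. LYS2 RNA stood at 1182 and 1303 CPM in ∆ntd cells in urea, 1007 and 1024 in ∆ntd cells without it, 1989 and 2020 in WT cells in urea and 1277 and 1273 in WT cells without it. WT in urea was above all other cultures, and ∆ntd without urea was below all others. Urea raised it in ∆ntd (log2 0.29 ± 0.06, edgeR adjusted p = 4.6e-04) and in WT (log2 0.65 ± 0.06, edgeR adjusted p = 1.7e-10), and the response was smaller in ∆ntd (log2 -0.36 ± 0.08, edgeR adjusted p = 0.00429). RNA was lower in ∆ntd in urea (log2 -0.69 ± 0.06, edgeR adjusted p = 2.4e-11) and without urea (log2 -0.33 ± 0.06, edgeR adjusted p = 5.7e-05), the second of which was -0.04 with library totals.

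LYS2 footprints were 857 and 894 CPM in ∆ntd cells in urea, 763 and 764 in ∆ntd cells without it, 1552 and 1504 in WT cells in urea and 829 and 836 in WT cells without it. Their change with urea did not pass in ∆ntd (log2 0.20 ± 0.09, edgeR adjusted p = 0.136), whereas they rose with urea in WT (log2 0.88 ± 0.09, edgeR adjusted p = 0.00114) and in urea were lower in ∆ntd (log2 -0.80 ± 0.09, edgeR adjusted p = 7.2e-04). The last value was -0.78 without replicate 1 and -0.84 without replicate 2 of ∆ntd in urea. The difference between the responses (log2 -0.68 ± 0.13, edgeR adjusted p = 0.0279) ended without any 1 of the other 6 cultures (adjusted p 0.115 to 0.156). LYS2 TE was 0.725 and 0.686 in ∆ntd cells in urea, 0.758 and 0.746 in ∆ntd cells without it, 0.780 and 0.744 in WT cells in urea and 0.650 and 0.657 in WT cells without it, a narrow range in which no comparison passed with all cultures and TMM.

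LYS5, which encodes the phosphopantetheinyl transferase that activates Lys2, had the scarcest RNA of the 9 genes per kb, with 32.9 and 29.6 CPM in ∆ntd cells in urea, 14.7 and 26.1 in ∆ntd cells without it, 20.6 and 19.0 in WT cells in urea and 18.4 and 23.3 in WT cells without it. These rest on 41 to 84 reads per library. RNA of ∆ntd in urea was above that of WT in urea (log2 0.67 ± 0.21, edgeR adjusted p = 0.0108) and than in ∆ntd without urea (log2 0.66 ± 0.23, edgeR adjusted p = 0.0313). The first call ended without replicate 2 of WT in urea (adjusted p = 0.0754), without replicate 1 of ∆ntd in urea (adjusted p = 0.0931) and by DESeq2 (adjusted p = 0.0818). The second fell to 0.27 (adjusted p = 0.492) without replicate 1 of ∆ntd without urea and ended also without replicate 1 of ∆ntd in urea (adjusted p = 0.17), by DESeq2 (adjusted p = 0.152) and with library totals (adjusted p = 0.0602). Footprints of LYS5 were 6.21 and 5.29 CPM in ∆ntd cells in urea, 4.10 and 5.47 in ∆ntd cells without it, 4.95 and 4.29 in WT cells in urea and 4.80 and 4.04 in WT cells without it, on 13 to 88 counts per library, and did not differ detectably at this depth. LYS5 TE was 0.189 and 0.179 in ∆ntd cells in urea, 0.279 and 0.209 in ∆ntd cells without it, 0.241 and 0.226 in WT cells in urea and 0.260 and 0.173 in WT cells without it, which lies between the 7.0th and the 11.6th percentile of all genes in the 4 groups.

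LYS9 encodes the saccharopine dehydrogenase that forms saccharopine, and it was the only gene of the pathway whose RNA urea raised in WT and lowered in ∆ntd. LYS9 RNA stood at 1116 and 1112 CPM in ∆ntd cells in urea, 1358 and 1272 in ∆ntd cells without it, 1837 and 1800 in WT cells in urea and 1503 and 1464 in WT cells without it. ∆ntd in urea was lowest and WT in urea highest, with no overlap among the 4 groups. Urea changed it in ∆ntd (log2 -0.24 ± 0.06, edgeR adjusted p = 0.0026) and in WT (log2 0.29 ± 0.06, edgeR adjusted p = 1.6e-04), and the responses differed (log2 -0.53 ± 0.08, edgeR adjusted p = 3.1e-05). The fall in ∆ntd had an adjusted p of 0.0521 without replicate 1 of ∆ntd without urea. In urea, LYS9 RNA was lower in ∆ntd (log2 -0.71 ± 0.06, edgeR adjusted p = 9.9e-12). Without urea it was lower (log2 -0.17 ± 0.06, edgeR adjusted p = 0.0198), a call that ended without either culture of WT without urea or replicate 2 of ∆ntd without urea (adjusted p 0.064 to 0.138) and turned to 0.11 with library totals.

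LYS9 footprints were 1075 and 634 CPM in ∆ntd cells in urea, 1212 and 1219 in ∆ntd cells without it, 1385 and 1442 in WT cells in urea and 1368 and 1370 in WT cells without it, and both cultures of ∆ntd in urea were below all others. In urea, footprints were lower in ∆ntd (log2 -0.72 ± 0.21, edgeR adjusted p = 0.0326), which became -1.16 without replicate 1 and -0.40 without replicate 2 of the ∆ntd cultures in urea, and passed no longer without any 1 of the other 6 cultures (adjusted p 0.0598 to 0.138) or with only the groups compared (adjusted p = 0.109). With urea in ∆ntd they changed by -0.93 without replicate 1 and -0.18 without replicate 2, and did not pass with both. TE of LYS9 was 0.964 and 0.570 in ∆ntd cells in urea, 0.892 and 0.958 in ∆ntd cells without it, 0.754 and 0.801 in WT cells in urea and 0.910 and 0.936 in WT cells without it, with the 2 cultures of ∆ntd in urea at the upper and lower end. In urea the TE change between strains was log2 -0.03 ± 0.23, and it was -0.48 without replicate 1 and 0.28 without replicate 2 of ∆ntd in urea.

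LYS1 encodes the saccharopine dehydrogenase that releases lysine. LYS1 RNA stood at 247 and 280.3 CPM in ∆ntd cells in urea, 256 and 241 in ∆ntd cells without it, 416 and 421 in WT cells in urea and 293 and 304 in WT cells without it. WT in urea was above all others, and the ∆ntd groups with and without urea overlapped. The change with urea did not pass in ∆ntd (log2 0.08 ± 0.08, edgeR adjusted p = 0.48), urea raised it in WT (log2 0.49 ± 0.07, edgeR adjusted p = 7.3e-07), and the responses differed (log2 -0.41 ± 0.10, edgeR adjusted p = 0.00761). That difference ended without replicate 1 of WT without urea, ∆ntd without urea or ∆ntd in urea (adjusted p 0.0553 to 0.0874) and by DESeq2 (adjusted p = 0.0592). RNA was lower in ∆ntd in urea (log2 -0.67 ± 0.07, edgeR adjusted p = 2.2e-09) and without urea (log2 -0.26 ± 0.07, edgeR adjusted p = 0.0053), the second of which ended without replicate 2 of either group (adjusted p 0.0521 and 0.0596) and turned to 0.023 with library totals.

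Footprints of LYS1 were 488 and 429 CPM in ∆ntd cells in urea, 418 and 382 in ∆ntd cells without it, 639.8 and 661 in WT cells in urea and 475 and 452 in WT cells without it. WT in urea was above all other cultures. The rise in WT (log2 0.49 ± 0.11, edgeR adjusted p = 0.0276) was 0.45 to 0.52 over the cultures left out. Its call ended without any 1 of the 6 cultures outside ∆ntd in urea and with library totals (0.37, adjusted p = 0.156). It passed in 6 of the 7 alternatives other than leaving out 1 culture. In urea, footprints were lower in ∆ntd (log2 -0.50 ± 0.11, edgeR adjusted p = 0.00919), at -0.60 without replicate 1 and -0.42 without replicate 2 of ∆ntd in urea. This call ended without either culture of WT in urea (adjusted p 0.0579 and 0.0646) and with only the groups compared (adjusted p = 0.0763). LYS1 TE was among the highest of the pathway, 1.97 and 1.53 in ∆ntd cells in urea, 1.63 and 1.59 in ∆ntd cells without it, 1.54 and 1.57 in WT cells in urea and 1.62 and 1.49 in WT cells without it, between the 91.1st and the 96.7th percentile of all genes, and no TE comparison passed with all cultures and TMM.

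LYS14 encodes the transcriptional activator of the pathway. Its RNA stood at 163 and 162 CPM in ∆ntd cells in urea, 179 and 183 in ∆ntd cells without it, 168 and 167 in WT cells in urea and 166 and 167 in WT cells without it. No RNA comparison passed with TMM. With library totals, ∆ntd had more LYS14 RNA than WT in urea (0.28, edgeR adjusted p = 0.00349) and without urea (0.40, edgeR adjusted p = 9.9e-05), and it fell with urea in ∆ntd (-0.23, edgeR adjusted p = 0.0368). Footprints were few, with 220 and 150 counts in ∆ntd cells in urea, 183 and 199 in ∆ntd cells without it, 54 and 22 in WT cells in urea and 243 and 247 in WT cells without it. In CPM they were 23.6 and 27.4 CPM in ∆ntd cells in urea, 17.5 and 14.1 in ∆ntd cells without it, 11.2 and 7.25 in WT cells in urea and 13.2 and 15.6 in WT cells without it. ∆ntd in urea was above all others and WT in urea below all others. In urea, ∆ntd had more footprints than WT (log2 1.42 ± 0.23, edgeR adjusted p = 0.00333), and within ∆ntd they rose with urea (log2 0.69 ± 0.20, edgeR adjusted p = 0.0342). The first was 1.51 without replicate 1 and 1.29 without replicate 2 of ∆ntd in urea. The second was 0.81 and 0.59 without them in the same order. It ended without either culture of WT without urea or of ∆ntd without urea (adjusted p 0.0666 to 0.215), with library totals (0.25, adjusted p = 0.343), with only the groups compared (adjusted p = 0.105) and by limma-voom (adjusted p = 0.153).

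LYS14 TE was 0.145 and 0.169 in ∆ntd cells in urea, 0.0974 and 0.0771 in ∆ntd cells without it, 0.0665 and 0.0434 in WT cells in urea and 0.0797 and 0.0933 in WT cells without it. These values put it at the 6.6th percentile of all genes in ∆ntd cells in urea, the 1.5th in ∆ntd cells without it, the 0.9th in WT cells in urea and the 1.2nd in WT cells without it. In urea, ∆ntd had the higher TE (log2 1.44 ± 0.22, edgeR adjusted p = 4.3e-04), a 2.71-fold difference that passed with each culture left out and under each other setting tried, at 0.85 on the log2 scale with library totals. Within ∆ntd it was higher with urea (log2 0.84 ± 0.19, edgeR adjusted p = 0.015), which ended without either culture of ∆ntd without urea (adjusted p 0.0829 and 0.17), with library totals (0.49, adjusted p = 0.0922), with only the groups compared (adjusted p = 0.109) and by limma-voom (adjusted p = 0.0976). In WT the change with urea did not pass (log2 -0.60 ± 0.22, edgeR adjusted p = 0.364). The responses differed (log2 1.44 ± 0.29, edgeR adjusted p = 0.0415), a value that did not pass without any 1 of the 6 cultures outside ∆ntd in urea (adjusted p 0.197 to 0.243). RNAseq and Riboseq libraries share the extract of a culture, and with culture as a term this difference was 1.46 and did not pass (adjusted p = 0.0861). Nor did it pass with library totals (1.08, adjusted p = 0.0668) or DESeq2 size factors (adjusted p = 0.0507).

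**Figure D4:**
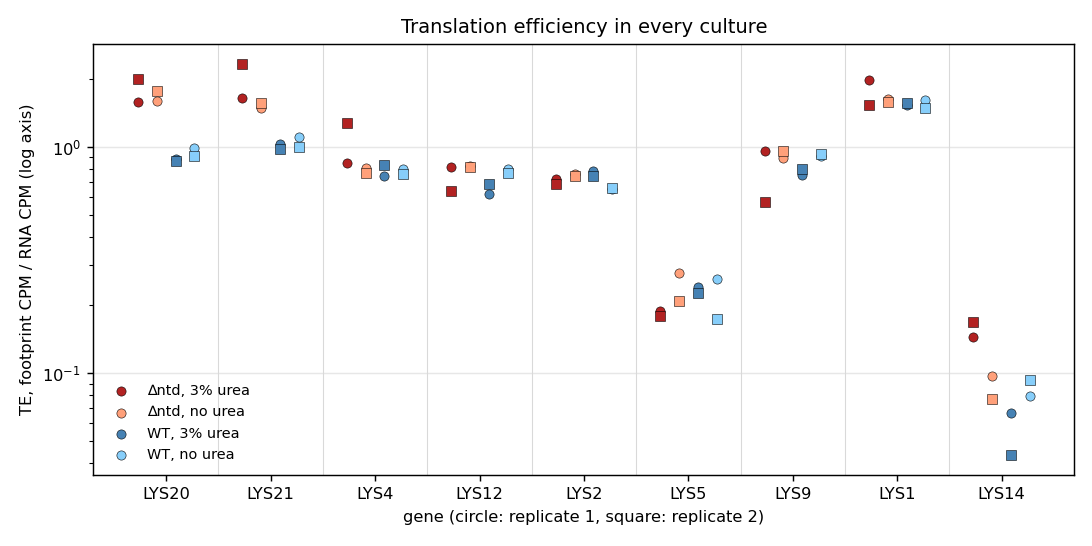
TE, the ratio of footprint CPM to RNA CPM, of the 9 genes in each of the 8 cultures, on a log axis, with circles for replicate 1 and squares for replicate 2. All ∆ntd cultures lay above all WT cultures for LYS20 and LYS21, and LYS14 was lowest in WT with urea (0.0434 and 0.0666) and highest in ∆ntd with urea (0.145 and 0.169).

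Genes that work beside the pathway moved in both directions. A list of 8 such genes was used, namely the aminotransferases ARO8 and ARO9, the 2-oxodicarboxylate carriers ODC1 and ODC2, the regulator MKS1, the lysine permease LYP1 and the lysyl-tRNA synthetases KRS1 (cytosolic) and MSK1 (mitochondrial). In RNA, 2 of 8 were higher and 2 lower with urea in ∆ntd, where 26.2% of all genes passed, and 3 were higher and 2 lower with urea in WT, where 28.5% passed. Between the strains, 1 was higher and 4 lower in ∆ntd in urea, where 43.9% of all genes passed, and 1 was higher and 3 lower without urea, where 36.8% passed. KRS1 RNA rose with urea in WT (log2 0.67 ± 0.06, edgeR adjusted p = 2.2e-10) and in urea was lower in ∆ntd (log2 -0.86 ± 0.06, edgeR adjusted p = 3.6e-13). ODC1 and ODC2 export 2-oxoadipate from mitochondria. Footprints of ODC1 fell with urea in ∆ntd (log2 -1.09 ± 0.15, edgeR adjusted p = 0.00254) and in WT (log2 -2.27 ± 0.18, edgeR adjusted p = 3.7e-04), and those of ODC2 in ∆ntd (log2 -1.02 ± 0.09, edgeR adjusted p = 4.3e-04) and in WT (log2 -1.02 ± 0.09, edgeR adjusted p = 5.5e-04). The ODC1 value in WT rests on 36 and 17 footprint counts in the cultures with urea. Alternative settings are not given for these genes.

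GCN4, whose translation is held back by short upstream reading frames in its leader, was counted because its product activates many of these promoters. Its footprints were 41.6 and 54.2 CPM in ∆ntd cells in urea, 38.8 and 42.3 in ∆ntd cells without it, 175 and 183 in WT cells in urea and 84.1 and 73.6 in WT cells without it, with WT in urea above and both ∆ntd groups below WT without urea. Its RNA was 941 and 904 CPM in ∆ntd cells in urea, 790.1 and 776 in ∆ntd cells without it, 576 and 631 in WT cells in urea and 677 and 699 in WT cells without it, highest in ∆ntd with urea. The TE of GCN4 was below that of WT in ∆ntd, both in urea (log2 -2.53 ± 0.16, edgeR adjusted p = 9.6e-07) and without urea (log2 -1.15 ± 0.15, edgeR adjusted p = 0.00105), and higher with urea in WT (log2 1.37 ± 0.15, edgeR adjusted p = 8.9e-04). Over the 4 groups WT with urea was thus highest both in GCN4 footprints and in the summed RNA of the lysine genes, and the part of Gcn4 in the RNA changes was not tested.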

How the data were processed

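RNAseq and Riboseq libraries of 8 cultures were analysed, with 2 cultures in each of 4 groups. After linker trimming (Cutadapt) and subtraction of non-coding RNA, the authors used Bowtie on the RiboGalaxy platform for alignment to the transcriptome of SGD, and deposited counts of uniquely mapped reads per gene without normalization. The submitters' processing notes name the build sacCer3, and the mismatches allowed are not given in the sources used here. The table also holds the authors' own fold changes and false discovery rates, which were not used. Footprints of 25 to 35 nt were selected from monosomes, with cycloheximide in the lysis buffer and the sucrose gradients. Unique mapping drops reads that LYS20 and LYS21 share.

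Counts were filtered with filterByExpr and scaled by TMM within each assay, and fitted over all 4 groups in edgeR 4.0.16 (glmQLFit, glmQLFTest) with Benjamini-Hochberg adjustment over all genes tested and a threshold of 0.05. TE was fitted over all 16 libraries as the Riboseq change minus the RNAseq change. SE were derived from the fold change and F statistic, with a prior count of 0.125. Fits were tested on simulated data in which every library had the same spread. That test therefore does not cover the wide Riboseq pair of ∆ntd in urea. Alternatives were DESeq2 1.42.0, its size factors, library totals, no filter, limma-voom (limma 3.58.1) with a variance per group, only the groups compared, a replicate block, culture as a term for TE, and leaving out each culture. Gene positions and sequences were read from RefSeq's copy of the R64 genome. No protein sequence was used. Members and lists were chosen with earlier results of these data known. All 9 members are named, with 8 pathway partners, GCN4, and the 5 genes with the most similar profile. Another partner gene is not reported here.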

Additional observations from a re-analysis of the deposited data

Results flagged for a closer look

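Groups of 2 cultures were not tested for outlying samples. The response to urea differed between the strains, by edgeR's test of that difference with Benjamini-Hochberg adjustment over all genes, in 8 results for 6 of the 9 genes. Each value is the log2 change with urea in ∆ntd minus that in WT. RNA responded less in ∆ntd for LYS20 (-0.68), LYS1 (-0.41), LYS2 (-0.36) and LYS12 (-0.26), while LYS9 RNA (-0.53) fell in ∆ntd and rose in WT. LYS2 footprints responded less in ∆ntd (-0.68). LYS14 went the other way in footprints (1.29) and TE (1.44), with footprint counts of 54 and 22 behind the values of WT in urea. With library totals the differences of LYS14 were 0.97 and 1.08 and passed no longer (adjusted p 0.0895 and 0.0668), nor did that of LYS12 RNA (adjusted p = 0.061). The footprint and TE differences of LYS2 and LYS14 named here passed no longer with a replicate block.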

How the results depend on the processing

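Of the changes tested, 49 of 135 passed. Over all settings 1848 values kept their side of the threshold, 115 lost a call, 69 gained one and 9 turned sign where a call was involved. Values that passed in neither fit could turn sign and were still counted among the 1848. Library totals turned RNA without urea for LYS4 (0.24), LYS9 (0.11) and LYS1 (0.0228), RNA in urea for LYS4 (0.078), LYS12 (0.15) and LYS14 (0.28) and TE in urea for LYS1 (-0.42), all for ∆ntd against WT. In the same comparison in urea, LYS21 footprints turned (-0.32 to 0.25 over the cultures left out), as did LYS9 TE (-0.48 to 0.28), in each case without replicate 2 of the ∆ntd cultures. Library totals also gave summed RNA of 5856 CPM in ∆ntd with urea, 5498 in ∆ntd without urea, 6954 in WT with urea and 5209 in WT without urea, and summed footprints of 4216, 5022 and 5086 CPM in ∆ntd with urea, ∆ntd without urea and WT without urea. They changed the number of genes called in footprints with urea in ∆ntd (1 in place of 3), TE with urea in ∆ntd (2 in place of 1) and TE between strains in urea (5 in place of 3). Fitting only the groups compared gave 0 footprint calls with urea in ∆ntd, 6 with urea in WT, 2 between strains in urea and 3 without, and 0 TE calls with urea in ∆ntd and 2 between strains without urea. limma-voom gave 5 footprint calls with urea in WT and 3 between strains without urea, and 0 TE calls with urea in ∆ntd and 2 between strains without urea. For the difference of responses, DESeq2 gave 3 RNA calls in place of 5, and its size factors 0 TE calls in place of 1. Culture as a term likewise gave 0. Replicate numbers did not pair the samples, with correlations of deviations between -0.359 and 0.063 in Riboseq and between -0.024 and 0.055 in RNAseq, and with a replicate block the difference of responses gave 0 footprint and 0 TE calls. With 1 culture omitted at a time, and the lone sample assumed to vary like the other groups, RNA calls ranged from 4 to 6 with urea in ∆ntd, 6 to 7 with urea in WT, 6 to 8 between strains in urea, 3 to 5 without urea and 3 to 6 for the difference. Footprint calls ranged from 0 to 6, 1 to 6, 2 to 6, 0 to 4 and 0 to 7 in the same order, and TE calls from 0 to 5, 0 to 0, 3 to 6, 0 to 2 and 0 to 5. Shares of all genes passing are given for the main fit only. Counts under every other setting, including those with 1 culture omitted, are therefore no result about the pathway. Cause of these shifts was not tested. Depth limits LYS5 and LYS14 most, with as few as 13 and 22 footprints in a library.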

Other observations

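The profile of each gene over the 16 libraries, as log2(CPM + 1) centred within each assay, was set against the mean profile of the 9 genes, in which each member also takes part. Pearson's r was 0.97 for LYS20, 0.87 for LYS2, 0.85 for LYS1, 0.79 for LYS4, 0.76 for LYS12 and 0.75 for LYS21, and 0.22 for LYS9, 0.02 for LYS5 and -0.07 for LYS14. Among all other genes, the profiles most like this mean were those of DYS1 (0.98), which encodes deoxyhypusine synthase, ADH3 (0.98), mitochondrial alcohol dehydrogenase, PYC2 (0.96), a pyruvate carboxylase, ELO1 (0.95), a fatty acid elongase, and SSZ1 (0.94), a ribosome-associated chaperone. These are descriptions over 16 libraries that share scaling and cultures, and the genes were picked as the highest of all.

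Genes of other amino acid routes were counted in the same comparisons. In RNA between the strains in urea, 8 of 9 genes of arginine synthesis were lower in ∆ntd and 1 higher (median log2 change -0.62), 8 of 10 of branched-chain synthesis were lower and 0 higher (median -0.38), and 4 of 6 of histidine synthesis were lower and 1 higher (median -0.32), beside a median of 0.03 over all genes, of which 43.9% passed and 22.5% were lower. With urea in ∆ntd, where 26.2% of all genes passed, 4 genes of arginine synthesis were higher and 1 lower, 6 of branched-chain synthesis were higher and 1 lower, and 2 of histidine synthesis were higher and 0 lower. With urea in WT, where 28.5% of all genes passed, the numbers higher were 5, 7 and 5, and the number lower was 0 in each list.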
